A study of Oryza sativa with 6 samples.

Results

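The genes described here encode the enzymes that put branches into the starch of the rice grain, take branches out and rework short glucan chains. They are the starch branching enzymes BEI, BEIIa and BEIIb, the isoamylases ISA1, ISA2 and ISA3, the pullulanase PUL, the plastid starch phosphorylase PHO1 and the disproportionating enzyme DPE1. The 9 genes were chosen by locus ID from a table of 55986 rows, and 8 of them are described; PUL (LOC_Os04g08270) was not analysed here. Messenger RNA had been sequenced from grains labelled as being in the mature period, in 3 libraries of the wild type rice line Zhenong 34 and 3 libraries of a mutant line, sg34. The labels give both lines the same tissue and stage, name no mutated gene and do not say how the mutant was made, so no targeted gene could be examined first. Whether the replicates of a line are separate plants is not stated either, so the p-values refer to the spread among these 6 libraries, some or all of which may be technical.

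Amylopectin, the main glucan of starch, is built in the amyloplast of the endosperm by chain elongation, branching and trimming. Branching enzymes cut a linear chain and rejoin the piece as a side branch. BEIIb is the main isoform that makes short branches in the rice endosperm, BEI acts on longer chains, and BEIIa is expressed through the plant, leaves included. Isoamylases hydrolyse branch points: ISA1, alone or in a complex with ISA2, removes misplaced branches so that amylopectin can pack into crystals, while ISA3 is known mainly from starch breakdown and plastid development. PHO1 can lengthen short glucan chains early in starch synthesis, and DPE1 transfers glucan segments from one short chain to another.

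The deposited values are TPM, which express each transcript relative to its length and to the total of its own library. They keep no sequencing depth, so no counting intervals are given. One library, wild type replicate 1, was unlike the rest: on the first principal component, which held 54.6% of the variance, it lay at -93.7, against -23.1 and -12.0 for the other wild type libraries and 16.7 to 63.2 for the mutant. The sum of 5 endosperm storage protein genes was 25830 TPM in it and 87930 to 128900 TPM in the other 5 libraries, and the sum of 2 oleosin genes, markers of the embryo and the aleurone, was 990.5 TPM against 2178 to 4109 TPM. The sum of 4 green tissue genes was 125.7 TPM in it and 5.93 to 76.1 TPM elsewhere. All 11 marker genes were above 0 in every library. In bulk grain RNA, fewer cells of a type and less RNA per cell cannot be told apart. Because such shifts move every TPM, libraries were also put on a common scale with trimmed mean factors, which were 1.66 in wild type replicate 1 and 0.702 to 1.22 in the others. Levels below are deposited TPM unless called scaled, and differences are log2 differences of scaled TPM + 1, mutant minus wild type. Where 3 values of a line are listed, they follow the order of replicates 1, 2 and 3.

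All 8 genes were transcribed in every library, at levels from 10.2 TPM for DPE1 in mutant replicate 1 to 3536 TPM for BEIIb in wild type replicate 1. BEIIb, BEI, PHO1 and ISA1 formed an abundant group. In the table of 55986 rows, BEIIb ranked between 21 and 55 in the 6 libraries, BEI between 34 and 74, PHO1 between 59 and 73 and ISA1 between 109 and 222. ISA3, ISA2, DPE1 and BEIIa formed a scarce group, whose ranks ran from 833 for ISA3 at its highest to 6568 for BEIIa at its lowest. The 4 abundant genes were above the 4 scarce ones in each library. Together the 8 genes took 0.821%, 0.692% and 0.587% of the nominal TPM total in the wild type libraries, and 0.498%, 0.554% and 0.721% in the mutant libraries. These shares overlapped between the lines.

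**Figure D1:**
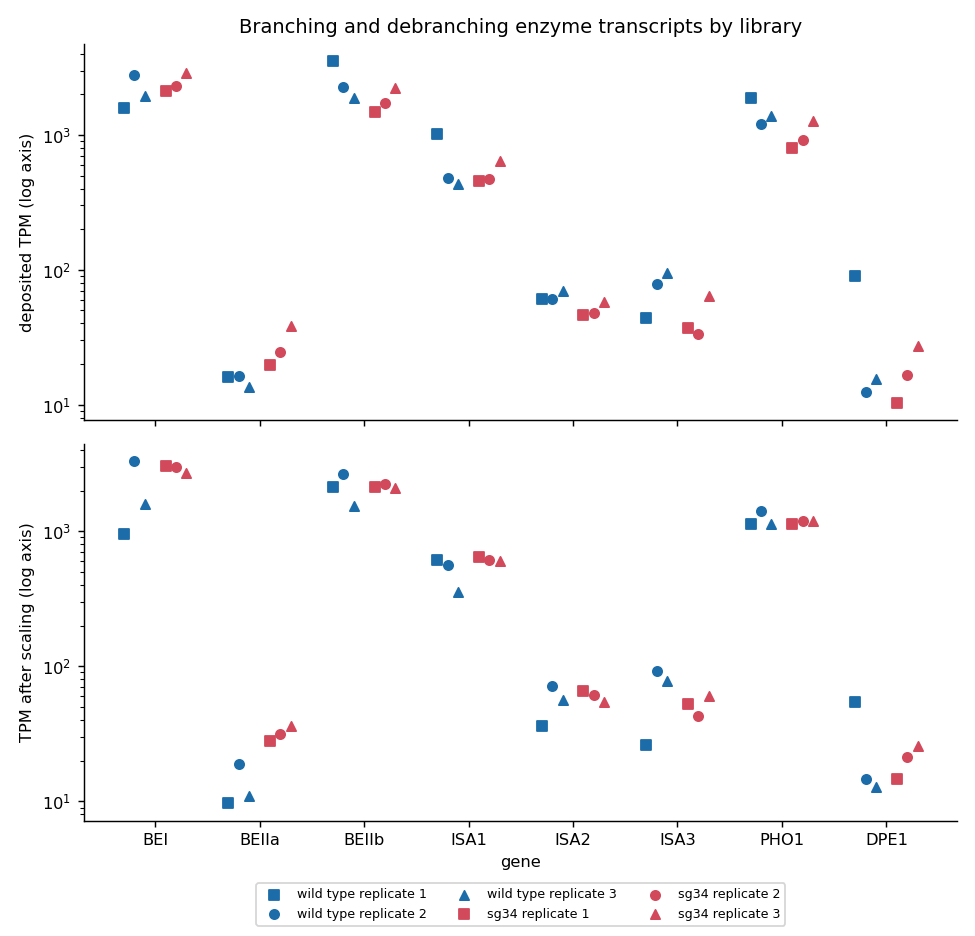
The level of each of the 8 genes in each library on log axes, as deposited TPM in the upper panel and as scaled TPM in the lower panel; blue points are the 3 wild type libraries, red points the 3 sg34 libraries, and the marker shape gives the replicate. BEIIa lies higher in all 3 mutant libraries in both panels, and DPE1 is highest in wild type replicate 1.

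In the wild type, the neighbouring means of BEIIb, BEI and PHO1 differed by less than 1 SD of BEI. BEIIb averaged 2565 ± 861 TPM, BEI 2108 ± 628 TPM and PHO1 1490 ± 341 TPM in the wild type (SD, n = 3). In the mutant, BEI averaged 2431 ± 389 TPM, BEIIb 1819 ± 381 TPM and PHO1 997 ± 249 TPM (SD, n = 3). BEI was above BEIIb in wild type replicates 2 and 3 and in all 3 mutant libraries, and below it in wild type replicate 1. ISA1 was the fourth in all 6 libraries. In the scarce group, ISA2 and ISA3 exchanged places between libraries and their means differed by less than 1 SD of ISA3 in both lines. DPE1 and BEIIa also exchanged places.

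None of the 8 genes differed between the lines past the threshold. By limma, 0 of 8 had an adjusted p under 0.05, beside 3.76% of the 16917 tested rows, and 1 of 8, BEIIa, had an unadjusted p under 0.05, beside 17.3% of the tested rows. The median log2 difference was 0.13 over the 8 genes and -0.01 over all tested rows. Without rescaling it was -0.39 and -0.43, with 2 of the 8 genes above 0 and 6 below. Of the 16917 tested rows, 3261 were then above 0 and 13656 below. Scaled levels did not overlap between the lines for 1 of 8 genes, again BEIIa, beside 23.6% of tested rows, so the genes' share was not above that of the table. All 8 passed the filter on low values.

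**Figure D2:**
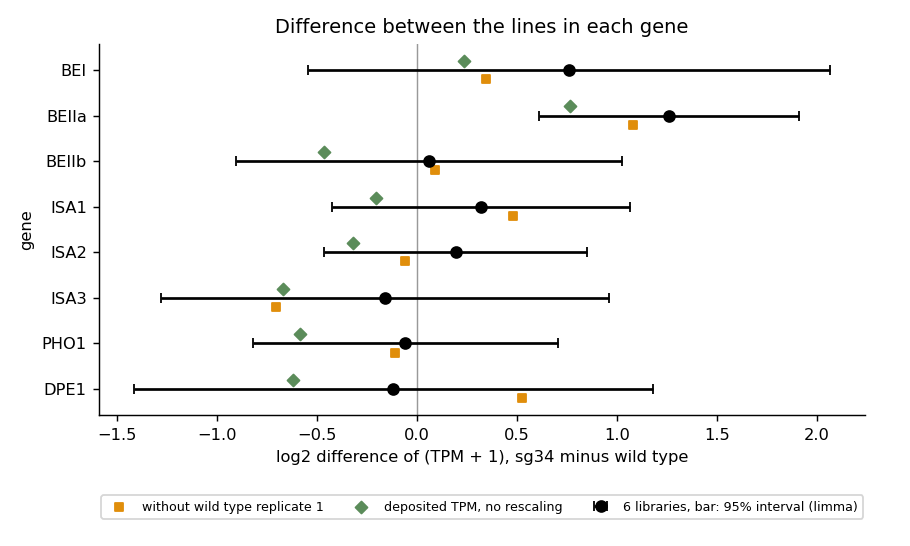
The log2 difference of each gene, sg34 minus wild type: black points use all 6 libraries with scaled TPM and carry 95% intervals from limma, unadjusted for multiple tests; orange squares leave out wild type replicate 1 and green diamonds use deposited TPM without rescaling. BEIIa lies to the right of 0 under all of them, at 1.26, 1.08 and 0.77. So does BEI, at 0.76, 0.35 and 0.24, with a 95% interval that includes 0.

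BEIIa (LOC_Os04g33460, chromosome 4), the scarcest of the branching enzymes among the 8 genes, showed the largest difference among them. It had 16.0, 16.2 and 13.4 TPM in the wild type libraries and 19.7, 24.6 and 38.3 TPM in the mutant libraries. Every mutant library was above every wild type library, beside 4.59% of tested rows that were higher in that way, and mutant replicate 3 was the highest. After scaling, the levels were 9.65, 19.1 and 10.97 TPM in the wild type and 28.0, 31.7 and 35.9 TPM in the mutant. The mutant libraries were then close together, and wild type replicate 2 was the nearest to them. The log2 difference was 1.26 ± 0.27 (SE), with a 95% interval of 0.61 to 1.91 and a limma adjusted p of 0.0638. Leaving out wild type replicate 2 gave 1.54 with a limma adjusted p of 0.0190, where 2.12% of tested rows were called higher. Leaving out any other library gave limma adjusted p of 0.0946 to 0.246, past no threshold. Library weights ran from 0.215 for wild type replicate 1 to 8.97 for mutant replicate 2. With them the log2 difference was 1.33 with a limma adjusted p of 0.00269, where 12.6% of tested rows were called higher. Without rescaling it was 0.77 with a limma adjusted p of 0.315. The deposited annotation describes the BEIIa row by its pea homologue, named starch branching enzyme I there, so the name BEIIa rests on the locus ID. It gives this row only a carbohydrate-binding domain (CBM_48), while the BEI and BEIIb rows also carry the catalytic alpha-amylase domain and its C-terminal all-beta domain. The transcript lengths behind the TPM were not examined, so the level of BEIIa relative to the other genes is less certain than its difference between the lines, which compares the same row.

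BEIIb (LOC_Os02g32660, chromosome 2) had 3536, 2261 and 1897 TPM in the wild type libraries and 1491, 1729 and 2236 TPM in the mutant libraries. Wild type replicate 1 was the highest, and the remaining libraries of the lines overlapped. After scaling, the mutant libraries lay between 2099 and 2232 TPM, inside the wild type range of 1551 to 2662 TPM. BEIIb had a log2 difference of 0.06 (95% interval -0.91 to 1.03, limma adjusted p = 0.949), or -0.47 without rescaling. That interval allows changes of up to about 1 log2 unit in either direction.

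BEI (LOC_Os06g51084, chromosome 6) had 1578, 2801 and 1945 TPM in the wild type libraries and 2123, 2301 and 2869 TPM in the mutant libraries. The lines overlapped, since wild type replicate 2 was above the first and second mutant libraries. After scaling, BEI spread from 951 TPM in wild type replicate 1 to 3297 TPM in wild type replicate 2, and from 2692 to 3025 TPM in the mutant. For BEI the log2 difference was 0.76 (95% interval -0.55 to 2.06, limma adjusted p = 0.497). Without wild type replicate 1 it was 0.35, without wild type replicate 2 it was 1.23, and without rescaling it was 0.24.

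Among the isoamylases, ISA1 (LOC_Os08g40930, chromosome 8) carried most of the transcript. It had 1021, 477.1 and 436 TPM in the wild type libraries and 454, 475 and 642 TPM in the mutant libraries. Wild type replicate 1 was 2.24 times the mean of wild type replicates 2 and 3, which lay near the lower mutant libraries. ISA1 had a log2 difference of 0.32 (95% interval -0.43 to 1.06, limma adjusted p = 0.618), and it was -0.21 without rescaling. Without wild type replicate 1 it was 0.48 (limma adjusted p = 0.474), and the scaled groups, which overlapped with all libraries, no longer did, as for 35.0% of tested rows.

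ISA2 (LOC_Os05g32710, chromosome 5), which encodes the isoamylase that partners ISA1 in the heteromeric complex, had 60.3, 60.6 and 69.1 TPM in the wild type libraries and 46.0, 47.8 and 58.2 TPM in the mutant libraries. As deposited, every mutant library was below every wild type library, beside 17.0% of tested rows that were lower in that way. After scaling the lines overlapped, at 36.3 to 71.3 TPM in the wild type and 54.6 to 65.5 TPM in the mutant. The log2 difference turned sign with the scaling: it was 0.19 (95% interval -0.46 to 0.85, limma adjusted p = 0.735) after scaling and -0.32 without it, and it was -0.06 without wild type replicate 1.

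ISA3 (LOC_Os09g29404, chromosome 9) had 43.6, 79.0 and 95.4 TPM in the wild type libraries and 37.2, 33.3 and 63.9 TPM in the mutant libraries. As deposited, wild type replicate 1 lay among the mutant libraries and the other wild type libraries lay above them. After scaling, wild type replicate 1, at 26.3 TPM, lay below the mutant libraries, at 43.0 to 60.0 TPM. Wild type replicates 2 and 3, at 92.9 and 78.0 TPM, lay above them. The log2 difference was -0.16 (95% interval -1.28 to 0.96, limma adjusted p = 0.878). It was -0.67 without rescaling, and it turned sign without wild type replicate 2, at 0.18, or without wild type replicate 3, at 0.05. Without wild type replicate 1 it was -0.70 (95% interval -1.26 to -0.15, limma adjusted p = 0.180), and the scaled groups did not overlap, as for 35.0% of tested rows. The unadjusted limma p was then 0.0208, beside 17.8% of tested rows with an unadjusted p under 0.05 and 4.34% with an adjusted p under 0.05.

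PHO1 (LOC_Os03g55090, chromosome 3) had 1868, 1207 and 1395 TPM in the wild type libraries and 797.1, 919 and 1276 TPM in the mutant libraries. As deposited, mutant replicate 3 fell between wild type replicates 2 and 3. After scaling PHO1 was the steadiest gene of the 8, with a coefficient of variation of 13.6% in the wild type and 2.81% in the mutant. PHO1 differed by -0.06 on the log2 scale (95% interval -0.82 to 0.70, limma adjusted p = 0.936), and -0.58 without rescaling.

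DPE1 (LOC_Os07g43390, chromosome 7) was the least steady, with a coefficient of variation of scaled TPM of 86.2% in the wild type. It had 89.9, 12.4 and 15.6 TPM in the wild type libraries and 10.2, 16.5 and 27.3 TPM in the mutant libraries. Wild type replicate 1 was above every other library. The log2 difference was -0.12 (95% interval -1.41 to 1.18, limma adjusted p = 0.924) with all libraries and 0.53 (95% interval -0.09 to 1.15, limma adjusted p = 0.356) without wild type replicate 1. Its sign also turned without mutant replicate 1, at 0.10, and it was -0.62 without rescaling.

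Wild type replicate 1 differed from the other wild type libraries in both directions across these genes. Relative to the mean of wild type replicates 2 and 3 on the scaled values, DPE1 was 3.96 times and ISA1 1.34 times as high in it, BEIIb was 1.01 times and PHO1 0.879 times, and BEIIa, ISA2, BEI and ISA3 were 0.643, 0.568, 0.389 and 0.307 times. On deposited TPM the same folds were larger: DPE1 was 6.43 times, ISA1 2.24 times, BEIIb 1.70 times, PHO1 1.44 times and BEIIa 1.08 times as high, while ISA2, BEI and ISA3 were 0.929, 0.665 and 0.50 times. PHO1 and BEIIa thus lay above or below the mean of wild type replicates 2 and 3 depending on the scaling. The low storage protein and oleosin sums and the high green tissue sum of that library moved with these values, and their part in them was not tested. In the mutant, the coefficient of variation of scaled TPM ran from 2.81% for PHO1 to 27.1% for DPE1, and in each of the 8 genes it was below that of the wild type. This was not particular to them. It was also lower in the mutant in the other tested starch pathway genes described below, except AGPS1 (22.1% against 14.5%) and FLO6 (38.4% against 37.1%). The share of all tested rows was not computed, and the wild type values include replicate 1.

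Ratios of genes within a library do not depend on the scaling between libraries and describe the makeup of the enzyme set. Of the summed TPM of the 3 branching enzymes, BEI took 30.8%, 55.2% and 50.4% in the wild type libraries and 58.4%, 56.7% and 55.8% in the mutant libraries. BEIIb took 68.9%, 44.5% and 49.2% in the wild type and 41.0%, 42.6% and 43.5% in the mutant. BEIIb was thus the main branching enzyme transcript in wild type replicate 1 alone, and BEI in the other 5 libraries. BEIIa took 0.312% to 0.348% in the wild type and 0.542% to 0.744% in the mutant.

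The ratio of BEIIa to BEIIb was 0.00453, 0.00716 and 0.00707 in the wild type libraries and 0.0132, 0.0142 and 0.0171 in the mutant libraries. All 3 mutant libraries exceeded all 3 wild type libraries, with a geometric mean 2.41 times as high. The ratio of BEI to BEIIb was 0.446, 1.24 and 1.03 in the wild type and 1.42, 1.33 and 1.28 in the mutant, again without overlap. Its log2 difference of 0.70 was 0.26 without wild type replicate 1. For both ratios the two-sided exact permutation p was 0.10, the smallest that 3 against 3 libraries allow, and 0.35 when adjusted over the 7 ratios computed, so this design could not pass a threshold of 0.05.

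**Figure D3:**
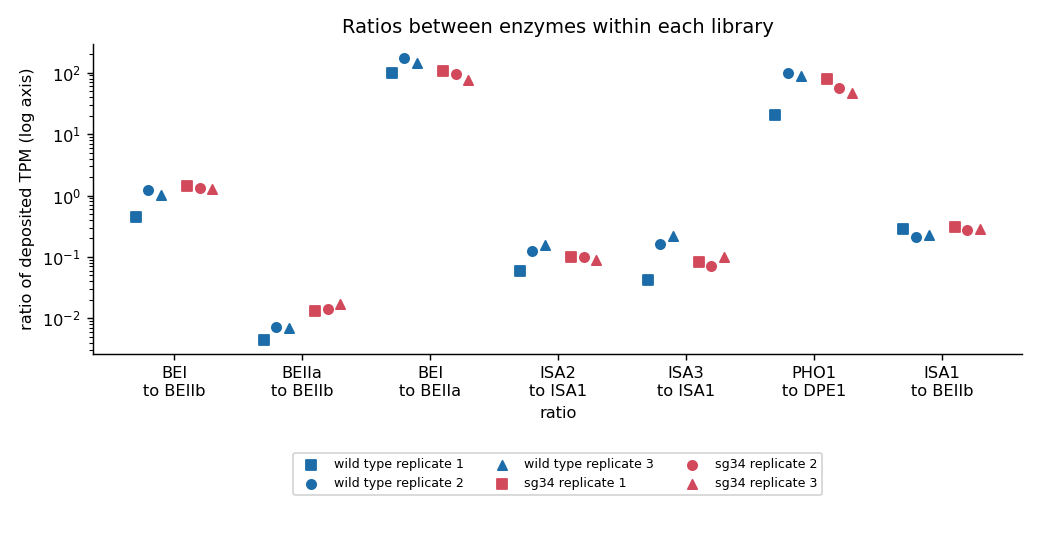
Ratios of deposited TPM between pairs of the genes within each library, on a log axis; blue points are wild type libraries, red points sg34 libraries, and the marker shape gives the replicate. Red points lie above all blue points for BEI to BEIIb and BEIIa to BEIIb, and the lines overlap in the other 5 ratios.

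The other 5 ratios overlapped between the lines. Within the isoamylases, ISA1 took 90.8%, 77.4% and 72.6% of the summed TPM in the wild type libraries and 84.5%, 85.4% and 84.0% in the mutant libraries, so the mutant libraries lay between those of the wild type. The ratio of ISA3 to ISA1 was 0.0427, 0.165 and 0.219 in the wild type and 0.0819, 0.0702 and 0.0995 in the mutant (exact permutation p = 0.50). Its log2 difference was -0.48 with all libraries and -1.20 without wild type replicate 1. The ratio of ISA2 to ISA1 (exact permutation p = 0.80) was 0.0906 to 0.101 in the mutant and 0.059 to 0.158 in the wild type. ISA1 to BEIIb, a debrancher against a brancher, was 0.211 to 0.289 in the wild type and 0.275 to 0.305 in the mutant (exact permutation p = 0.30). BEI to BEIIa (exact permutation p = 0.20) and PHO1 to DPE1 (exact permutation p = 1.0) had log2 differences of -0.57 and 0.05.

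Other genes of the starch pathway gave the setting for these values. Of 21 such genes, chosen by locus ID, 19 passed the filter, and 0 of 19 were called in either direction by limma, beside 3.76% of tested rows. An unadjusted p under 0.05 was found for 4 of 19, beside 17.3% of tested rows, so neither count stood out from the table. Their median log2 difference was 0.04, with 11 above 0 and 8 below, beside 8342 and 8575 of all tested rows. Without rescaling it was -0.47, with 5 above 0 and 14 below, beside 3261 and 13656 of all tested rows. The granule-bound starch synthase gene Wx, which makes amylose, had 2790, 3292 and 2140 TPM in the wild type libraries. In the mutant libraries it had 9486, 9145 and 12651 TPM, without overlap, beside 4.59% of tested rows that were higher in that way. Its log2 difference of 2.46 (95% interval 1.08 to 3.84) was the largest of the pathway, with a limma adjusted p of 0.0821. Without rescaling it was 1.93, with a limma adjusted p of 0.178. The scaled log2 difference of BEIIa was the next with all libraries, but without wild type replicate 1 it was 1.08, below the 1.24 of AGPL3. AGPL3 (LOC_Os05g50380) and AGPL1 (LOC_Os03g52460) encode large subunits of the ADP-glucose pyrophosphorylase that makes the substrate of starch synthases. AGPL3 had a log2 difference of 0.97 (limma adjusted p = 0.174), or 0.45 without rescaling, and AGPL1 one of -0.52 (limma adjusted p = 0.248), or -1.04 without rescaling. The cytosolic phosphorylase gene PHO2 had one of 0.60 (limma adjusted p = 0.271), or 0.12 without rescaling and 0.36 without wild type replicate 2, beside -0.06 for its plastid counterpart PHO1.

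**Figure D4:**
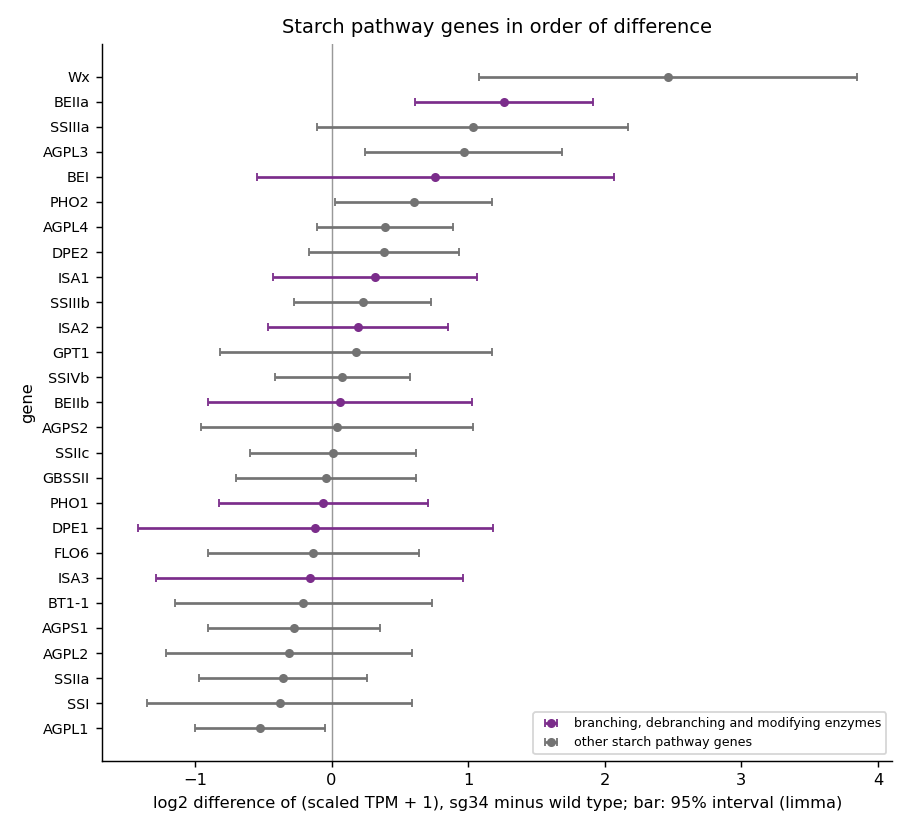
Log2 differences of scaled TPM + 1, sg34 minus wild type, with 95% intervals from limma that are unadjusted for multiple tests; purple marks the 8 branching, debranching and chain-modifying genes and grey the 19 other tested starch pathway genes. With all libraries BEIIa, at 1.26, lies next to Wx, at 2.46, and the other 7 purple points lie between -0.16 and 0.76 with intervals that include 0.

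Besides the 8 genes, 3 rows carried a description of the same enzyme families. A row described as 1,4-alpha-glucan-branching enzyme 3 (LOC_Os06g26234) had 0.46 to 2.03 TPM in the 6 libraries, below BEIIa in each. The row of the cytosolic disproportionating enzyme DPE2 (LOC_Os07g46790) had 2.90 to 9.63 TPM and that of PHO2 (LOC_Os01g63270) 3.93 to 12.9 TPM.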

How the data were processed

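The deposited table gives TPM per gene row, made by the authors; its file name calls the values counts, but each library adds up to 967528 to 991476 TPM. The submitters' processing notes list HISAT2 2.1.0, Bowtie2, RSEM, StringTie and DESeq2 1.12.4 without saying which step each served. These notes name a mouse genome build, and the rice build is not given in the sources used here. Per the labels' protocols, total RNA was made into libraries with the SMARTER kit for mRNA. Mutant columns are named sg31, sg32 and sg33 and were matched by number to the sg34 libraries, the only mutant in the series. Depth is unknown, and columns of other samples numbered 0.

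Tested rows, 16917 of 55986, had 1 TPM or more in 3 or more libraries. Libraries were scaled by the trimmed mean of M values, unweighted (30% of M and 5% of A values trimmed), with the library sum included. Log2(TPM + 1) was tested with limma 3.58.1 in R 4.3.3, with a variance trend on mean level and Benjamini-Hochberg adjustment over all tested rows at 0.05. Fold changes on this scale understate the change of low genes. Fits were tested on simulated data with changes placed in better expressed rows. They called 16.1% of 2-fold, 62.2% of 4-fold and 87.5% of 8-fold changes, and 7.08% of calls were false. Most 2-fold changes were thus missed in the simulated data. Their noise was independent between libraries and had the same spread in both lines. The real libraries, with wild type replicate 1 apart from the rest, were not like that, so recovery in them may differ. Ratios used deposited TPM with no pseudocount and two-sided exact permutation tests over libraries. Same-numbered libraries deviated together with correlations of -0.541, 0.0032 and -0.368, so numbers were not taken as pairs. Genes, lists, ratios and alternatives were chosen with earlier results of these data known. All 9 listed genes were to be named, with the 4 other pathway genes of smallest p and Wx, which was among them, and the 2 described genes closest in pattern to each branching enzyme. No sequences are shown. Gene names follow locus IDs. Deposited descriptions were checked for the enzyme or protein family, which they contradicted for 0 loci, and not for the isoform. For 2 loci, AGPL1 and AGPL3, the list first had the names exchanged, and the isoform number of the deposited annotation is used.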

Additional observations from a re-analysis of the deposited data

How the results depend on the processing

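TPM keep no depth, and with 3 libraries a line the 95% intervals of 7 of the 8 genes include 0. Genes called numbered 636 with the settings as described, 269 with a filter of 5 TPM (fewer genes tested), 3916 with library weights, 254 with the replicate block and 320 to 734 without a library. Of the 8 genes 0 were called, and 1, BEIIa, with library weights and without wild type replicate 2, so 0 to 1 without a library. The replicate block left BEIIa with an adjusted p of 0.183, and none of the 8 was called. Of the other pathway genes 1, Wx, was called with no variance trend and 3 with library weights. Scaled groups did not overlap for 1 gene, BEIIa, beside 23.6% of tested rows. Without a library this held for 1 to 3 genes. The 3 were BEIIa, ISA1 and ISA3 without wild type replicate 1, beside 35.0% of tested rows. On deposited TPM it held for 2, BEIIa (higher, beside 4.59% of tested rows) and ISA2 (lower, beside 17.0%). These counts were not read as a trait of the genes. BEI and BEIIa kept their sign in all 15 alternatives. Signs turned without rescaling, which moved the median of all tested rows from -0.01 to -0.43, for BEIIb (-0.47), ISA1 (-0.21) and ISA2 (-0.32). DPE1 turned with library weights (0.49). Leaving out each library, log2 differences ran from -0.146 (without wild type replicate 3) to 0.243 for BEIIb, -0.061 (without wild type replicate 1) to 0.408 for ISA2, -0.703 to 0.179 (positive without wild type replicate 2 or 3) for ISA3, -0.109 to 0.05 (positive without wild type replicate 2) for PHO1 and -0.483 to 0.526 (positive without wild type replicate 1 or mutant replicate 1) for DPE1. Log2 ratios ran from -0.544 to 0.169 for ISA2 to ISA1 (positive without wild type replicate 2 or 3) and from -0.668 to 0.445 for PHO1 to DPE1 (negative without wild type replicate 1 or mutant replicate 1). Apart from the shift by rescaling, the cause was not tested.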

Other observations

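The patterns of the branching enzymes over the 6 libraries were compared with those of 5022 described genes of at least 10 TPM on average, as a description. Closest to BEI were LOC_Os02g07960, described as a STRUBBELIG-receptor family protein, and LOC_Os01g27150, described as a cullin, with Pearson correlations of scaled log2 levels of 0.997 and 0.994. Closest to BEIIa were LOC_Os07g26940 at 0.991 and LOC_Os03g50390, described as a probable serine/threonine protein kinase, at 0.989. Closest to BEIIb were LOC_Os12g05050, described as a stem-specific protein, at 0.987 and LOC_Os03g12300, described as a VAC14 homologue, at 0.986. All of these correlations run over the same 6 libraries, 3 of each line. A difference between the lines or in wild type replicate 1 thus enters each of them, and so do the scaling factors that all genes share. As deposited, LOC_Os02g07960 had 35.9, 35.2 and 35.8 TPM in the wild type, where BEI was lowest in replicate 1. LOC_Os03g50390, at 19.5 to 31.8 TPM in the wild type and 18.7 to 28.3 TPM in the mutant, overlapped between the lines as deposited. BEIIa did not, nor did LOC_Os07g26940, at 29.3 to 32.2 TPM and 37.1 to 60.6 TPM. A correlation over 0.95 was found for 188 genes with BEI, 35 with BEIIa and 13 with BEIIb.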
